A study of Mus musculus with 2 samples.

Results

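Unspliced intergenic contigs are stretches of continuous RNA-seq read coverage that lie far from annotated genes and outside every assembled spliced transcript. They were chosen by measured values and position in the contig table of an embryonic mouse liver study (mm9 build), with 4 criteria: a length of at least 200 nt, a level of at least 0.5, a distance of more than 5000 nt from any gene of the annotated Ensembl release 65 gene table on either strand, and no overlap with a de novo transcript of 2 or more exons. Of 599181 contigs, 64885 had the level and the length, 63139 of those overlapped an annotated gene, and 1059 lay more than 5000 nt from any. Overlap with a spliced de novo transcript removed 800 of the 1059, which left 259 contigs, 0.399% of the contigs of that level and length. Their summed length was 240321 nt, and they held 0.24% of the base coverage of all contigs.

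The study has 1 group of 2 libraries, named biological replicates 1 and 2 by the labels, with no treatment or mutant to set against it. Each was made from liver of C57BL/6J embryos at day 14.5, pooled from littermates of both sexes, and is a strand-specific paired-end library of polyadenylated RNA above 200 nt. The number of embryos in a pool is not given in the sources used here, so the spread between the libraries may be in part technical. Gene counts summed to 102720920 in replicate 1 and 65640933 in replicate 2. The liver label was checked against marker genes: Alb, the main plasma protein of hepatocytes, had 10323 TPM in replicate 1 and 8911 TPM in replicate 2, and Alas2, which starts haem synthesis in erythroid cells, had 973 and 944 TPM, while the lung gene Sftpc and the kidney gene Umod were at 0 in both.

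At this stage the liver is the main site of blood formation, and erythroid precursors and hepatoblasts make up many of its cells. Coverage between genes in such tissue can come from several kinds of RNA: long noncoding RNAs, transcripts that start upstream of or run past known genes, exons not yet annotated, and processed pseudogenes. A processed pseudogene, or retrocopy, is a copy of a spliced mRNA that was written back into the genome; it lacks introns, and a young copy is nearly identical to its parent gene. Abundant mRNAs, such as those of ribosomal proteins, have left many such copies in mammalian genomes. Reads from a parent mRNA can align to a near-identical copy, and how the authors placed such reads is not given in the sources used here.

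The highest contigs are shown first through pseudogenes annotated between the same flanking genes, because they hold most of the coverage. A later annotation (GENCODE M21, on the mm10 build) lists genes that the mm9 table does not have. For each contig, the genes that this annotation adds between the same flanking genes were listed. The sequences below are 60-base windows of 4 such pseudogenes on the strand of the contig, each above the matching window of its closest protein-coding transcript. They come from the GENCODE M21 transcripts on mm10, run 5′ to 3′, and capitals mark the bases at which the copy and the coding gene differ.
Gm9794 (chromosome 6): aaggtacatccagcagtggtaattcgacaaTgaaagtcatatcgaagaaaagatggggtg
Rpl23 (chromosome 11): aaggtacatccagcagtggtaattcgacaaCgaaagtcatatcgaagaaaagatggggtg
Gpx4-ps2 (chromosome 10): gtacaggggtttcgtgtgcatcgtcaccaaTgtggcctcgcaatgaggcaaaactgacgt
Gpx4 (chromosome 10): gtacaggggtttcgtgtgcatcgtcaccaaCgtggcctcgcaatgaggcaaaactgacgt
Gm8942 (chromosome 10): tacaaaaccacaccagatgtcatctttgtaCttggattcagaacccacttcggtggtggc
Rps24 (chromosome 14): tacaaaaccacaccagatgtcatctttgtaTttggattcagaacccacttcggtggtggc
Gm4366 (chromosome 7): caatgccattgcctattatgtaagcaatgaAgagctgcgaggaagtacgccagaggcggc
Eef1g (chromosome 19): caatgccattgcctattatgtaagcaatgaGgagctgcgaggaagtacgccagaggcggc

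Each window was placed around a difference, so the identity within it is no measure of the whole copy. Positions are counted from the first base of the coding sequence, with the coding gene's base first. The difference in Gm9794 is C253T, which turns an arginine codon of Rpl23 into a stop codon. The difference in Gpx4-ps2, C204T, and that in Gm4366, G246A, leave the encoded residue as it is. That in Gm8942, T172C, gives leucine in place of phenylalanine.

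The level of a contig is its summed base coverage per nucleotide and per 1e9 mapped bases, both libraries pooled by the authors. Multiplied by the depth that the table implies, 3.40e10 mapped bases, and divided by 1e9, it gives the mean read depth. Levels of the 259 contigs ran from 0.502 to 715 with a median of 0.85, which corresponds to a mean depth of 28.9 reads. Since level, length and distance chose the contigs, these values are a description with no test. The middle 50% of contigs lay between 0.638 and 1.37, and 156 contigs were below 1. A gap separated the top of the distribution from the rest: 9 contigs had levels of 155 to 715, and the next had 19.2. The 9 contigs held 87.7% of the base coverage of all 259, the 94 contigs with levels of 1 to 100 held 8.13%, and the 156 below 1 held 4.20%. The bands at 1 and 100 were chosen after the levels were seen.

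**Figure D1:**
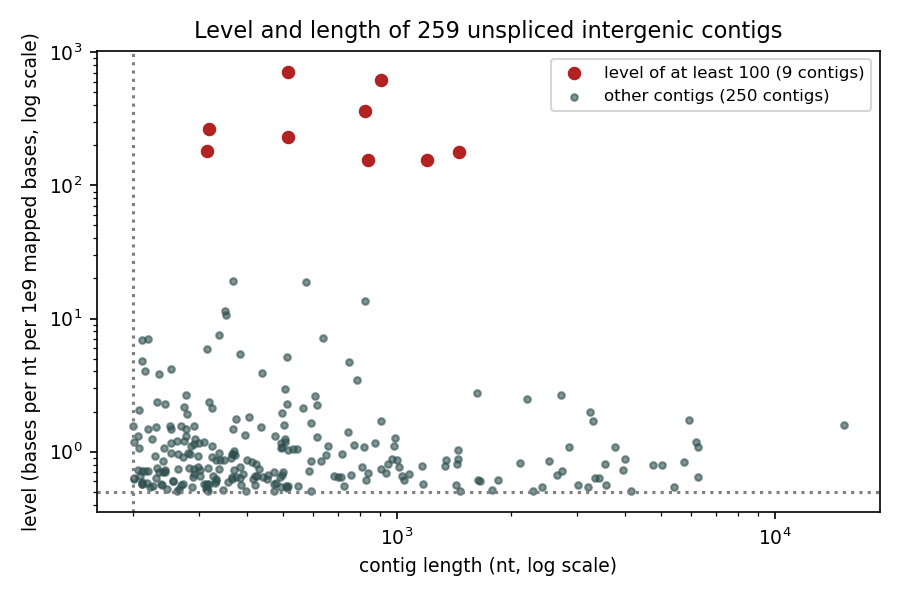
Level (vertical axis, read bases per nucleotide per 1e9 mapped bases, log scale) against length (horizontal axis, nt, log scale) of the 259 unspliced intergenic contigs, 1 point per contig. Dotted lines mark the minimum level of 0.5 and the minimum length of 200 nt; 9 contigs (red) sit between 155 and 715, above all others, and the longest contig, 15240 nt, has a level of 1.59.

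The contig of highest level, 715, was 514 nt long and lay at chr6:66825256-66825769 on the minus strand, 18879 nt from 4930597O21Rik, which had 0.07 and 0.03 TPM. Between its flanking genes the later annotation adds Gm9794 on the same strand, whose 423-base transcript was 99.8% identical to Rpl23, a protein of the large ribosomal subunit. Rpl23 itself had 465 TPM in replicate 1 and 228 TPM in replicate 2. The same interval also holds Gm44261, 94.7% identical to Rps7, a protein of the small ribosomal subunit. A single-exon de novo transcript over this contig had 170 RPKM in the first and 94.4 RPKM in the second replicate column of the mm9 table; which column is which library is not stated.

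The contig with a level of 365, chr10:45595089-45595913 on the plus strand, was 825 nt long and lay 162938 nt from Hace1, a ubiquitin ligase. Gpx4-ps2 lies between its flanking genes, with 99.6% identity over its 555 bases to Gpx4, the glutathione peroxidase that reduces lipid peroxides. Gpx4 had 383 TPM in replicate 1 and 372 TPM in replicate 2. The de novo transcript here had 89.9 and 101 RPKM in the replicate columns.

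The contig with a level of 232, chr10:114706990-114707504 on the plus strand, shares its interval with Gm8942, 97.5% identical to Rps24 of the small ribosomal subunit, and Rps24 had 2045 and 1678 TPM in replicates 1 and 2. The one at 181, chr17:23013188-23013501 on the plus strand, lay 9087 nt from the zinc finger gene Zfp945. Its interval holds AC154486.1, 94.9% identical to Rpl7a of the large ribosomal subunit, which had 1256 and 898 TPM. The contig at 177, chr7:123967908-123969367 on the minus strand, was 1460 nt long, the longest of the 9, and its interval holds Gm4366, whose 1342 bases were 99.6% identical to Eef1g, a subunit of translation elongation factor 1. Eef1g had 174 TPM in replicate 1 and 157 TPM in replicate 2.

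The contig at 156, chr3:124088425-124089625 on the plus strand, shares its interval with Gm4617, 99.1% identical to Ptma, which encodes prothymosin alpha, an abundant acidic nuclear protein. Ptma had 1221 TPM in replicate 1 and 454 TPM in replicate 2, and in the same tables Gm4617 was given 10.3 and 2.75 TPM. Matches of at least 90% identity to a coding gene of at least 100 TPM were then taken. In each of these 6 intervals, such a same-strand pseudogene was 94.7% to 99.8% identical to its coding gene. The match covered at least 99.4% of its length, and the coding genes averaged 165 to 1862 TPM. High identity and an abundant coding gene follow in part from these minimums, so the values are a description. Left out were Gm6008 in the interval of the contig at 177, 87.9% identical to Vdac1 (51.5 TPM on average), and AC154486.2 in that of the contig at 181. The latter matched Slc3a2 (46.2 TPM on average) over 8.34% of its length. The contig at 155, chr1:138689599-138690435 on the plus strand, was 837 nt long, and its de novo transcript had 62.5 and 36.8 RPKM in the replicate columns.

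The intervals of the contigs at 615 and 266 held no match that met both minimums. The contig at 615, chr6:3150766-3151672 on the plus strand, lay 170585 nt from Samd9l, between it and the start of the chromosome. The pseudogenes in this wide interval matched genes of much lower level: Gm42961 was 97.7% identical to Cdk6, a cell cycle kinase at 2.17 and 2.03 TPM, while Gm18222 and Gm2651 were 84.3% identical to Zfp384 and 83.8% identical to Cox11. The contig at 266, chr16:17222293-17222611 on the plus strand, was 319 nt long and lay 8229 nt from Rimbp3, with no gene added between its flanking genes. Its de novo transcript had 37.2 and 16.6 RPKM. The tenth contig, chr8:3754394-3754761 on the minus strand with a level of 19.2, lay 5410 nt from the lectin gene Cd209a and likewise had no added gene.

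Coverage of the high contigs came from 1 strand. No contig of any level overlapped 8 of the 9 on the opposite strand. The exception was the contig of the Gm4617 interval, where an opposite-strand contig of level 18.7, itself one of the 259, stood against its level of 156. Over all 259 contigs, 54 were overlapped by an opposite-strand contig of any level and 9 by one of at least 0.5. The same counts were not made over other contigs.

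Over all contigs whose flanking genes keep their order in the later annotation, 255 of 259, a processed pseudogene was added on the same strand for 137 (53.7%) and on the opposite strand for 66 (25.9%). The same intervals serve for both strands, so the interval's size is the same in each pair of counts. In the band of at least 100 the counts were 8 of 9 on the same strand and 3 of 9 on the opposite strand, in the band of 1 to 100 they were 53 and 25 of 93, and in the band of 0.5 to 1 they were 76 and 38 of 153. A long noncoding RNA was added on the same strand for 75 contigs (29.4%) and on the opposite strand for 49 (19.2%). For 74 contigs the later annotation adds no gene on their strand. Coordinates were not carried between the builds, so a gene in the same interval need not overlap the contig, and whether reads came from a pseudogene or from its parent cannot be told apart.

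**Figure D2:**
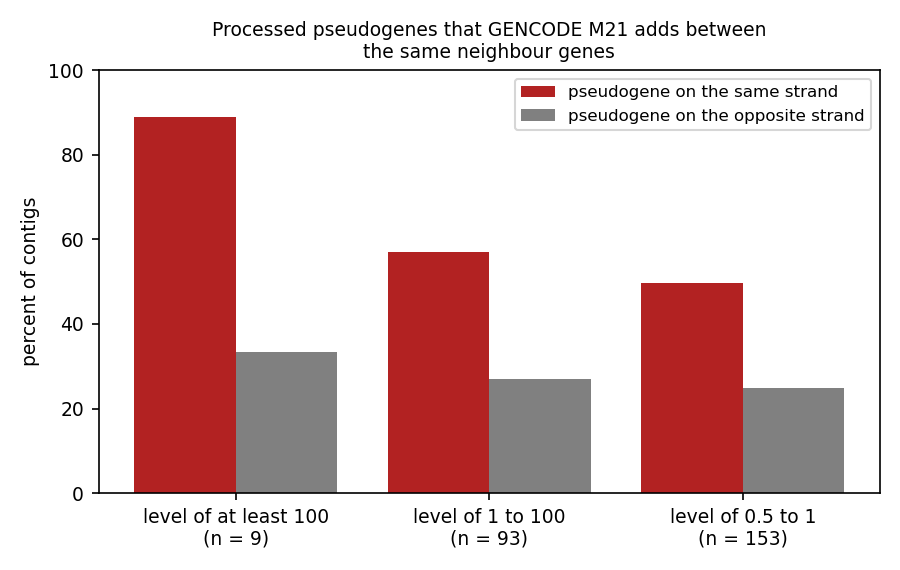
Percent of contigs (vertical axis) with a processed pseudogene added by GENCODE M21 between the same flanking genes, on the strand of the contig (red) and on the opposite strand (gray), in 3 bands of level. The same-strand bars stand at 88.9%, 57.0% and 49.7%, against 33.3%, 26.9% and 24.8% on the opposite strand.

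The per-library gene tables list an added same-strand gene for 80 contigs, and for 5 of them it reached 1 TPM in both libraries. Besides Gm4617 these genes included Gm9522, with 3.69 and 3.75 TPM, in the interval of a pair of contigs on chromosome 15, and Gm8797, annotated as protein coding, with 2.31 and 1.51 TPM.

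The 259 contigs had a median length of 414 nt, against 685.5 nt in the 800 contigs that were equally far from genes but overlapped a spliced de novo transcript, and 954 nt in the contigs overlapping genes. Lengths ran from 200 to 15240 nt, with 154 contigs under 500 nt and 51 of at least 1000 nt. Median levels were 0.85 in the 259 contigs, 1.03 in the 800 and 1.78 over genes. The highest level of the 800 was 4430, at chr3:5860318-5860841, so exclusion for splicing also removed contigs above the highest one kept. Across the 259 contigs Spearman's rho was -0.01 between level and length and -0.11 between length and distance; these are across contigs of the same pooled libraries and are given as descriptions.

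The longest contig, chr19:29141525-29156764 on the plus strand, spanned 15240 nt at a level of 1.59, 19074 nt from Ak3, a mitochondrial adenylate kinase. The next by length were a 6273-nt contig of level 0.646 on chromosome 1, described below with its locus, and a 6252-nt contig of level 1.09 at chr3:127650860-127657111, 51619 nt from Fam241a. The 6191-nt contig at chr16:49840005-49846195 (level 1.19) ended 9536 nt before the start of Cd47, the "don't eat me" surface protein, on the same strand. The 5909-nt contig at chr1:82820886-82826794 (level 1.73) ended 9264 nt before Agfg1, also on the same strand. Cd47 had 88.2 and 69.2 TPM in replicates 1 and 2, and Agfg1 42.0 and 47.7 TPM. None of these 5 had a level above 1.73, while the 9 high contigs were 314 to 1460 nt long.

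The label unspliced was then checked against the deposited splice junctions, which the criteria did not use directly. The data went against it for part of the set. Of 259 contigs, 147 (56.8%) held an end of at least 1 same-strand junction, 103 of a junction with at least 2 reads, and 53 (20.5%) of one with at least 10 reads. In 47 contigs a junction of at least 10 reads left the contig. Counted contig by contig, the junctions concerned numbered 1187, and a junction between 2 contigs counts in both. None was flagged as annotated. The distance criterion keeps the contigs outside annotated genes, so this would be fixed in advance if the flag rests on the same gene table. Reads came from both replicates in 236 of the 1187 counted, and in 130 of the 137 counted with at least 10 reads. The contigs are therefore outside the assembled spliced transcripts, but not all are without spliced reads. The same shares were not measured over other contigs, so whether they are high or low for covered contigs is not known.

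Inside the 9 high contigs were 277 junctions, with a median gap of 93 nt. The other contigs held 158, with a median gap of 380.5 nt. These counts were not set against coverage, of which the 9 held 87.7%. A gap inside a contig cannot exceed its length. The 9 were 314 to 1460 nt long, and the longest other contig had 15240 nt. In the contig near Zfp945 there were 0 inside junctions. The contig of the Gm4617 interval alone held 186, and its 197 junctions carried 889 reads in replicate column R1 and 160 in R2. The most read of all was an 89-nt gap inside the contig of the Gpx4-ps2 interval, with 232 and 62 reads. In the contig near Samd9l a 144-nt gap had 131 reads in R1 and 0 in R2. Whether these gaps are introns or alignment gaps between a copy and its parent was not tested.

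In 9 contigs a junction of at least 10 reads ended in an annotated gene on the same strand, each with reads in both replicate columns. The contig near the adhesion receptor gene Adgrg1, chr8:97500913-97501528, was joined to it by 117 reads (75 in R1, 42 in R2) over a gap of 25021 nt. A contig whose nearest gene was Celf1, chr2:90772291-90772621 on the minus strand, was joined to Ptpmt1, a mitochondrial lipid phosphatase, by 98 reads (54 and 44). Celf1, and Ak3 near the longest contig, lie on the strand opposite to their contigs, where no join was sought. The longest contig was joined by 63 reads (47 and 16) to Rcl1, whose yeast counterpart acts in ribosomal RNA processing. This contig also held a 14129-nt gap with 210 reads (91 and 119). The further genes were Scaf8 with 52 reads, Zfp160 with 36, the basement membrane gene Nid2 with 35, Spn (CD43 of blood cells) with 28, Alb with 19 and Trak2 with 13.

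The contig joined to Alb lay at chr5:90843528-90843919 on the plus strand, 45996 nt before the gene, with a level of 0.678. Its junction spanned 46925 nt and had 8 reads in R1 and 11 in R2. Alb averaged 9617 ± 999 TPM (SD, n = 2), so the joined reads were few beside those of the gene. The contig lies upstream of the hepatocyte gene, and its 392 nt held no single-exon de novo transcript.

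The locus with most members was on the plus strand of chromosome 1, where contigs no more than 10000 nt apart were joined. It held 6 contigs, 18078 nt in all, within chr1:138563800-138587706, and ended 5082 nt before an annotated gene without a symbol in the sources used (ENSMUSG00000085011). Levels were 0.542 to 0.881 in 5 of the contigs and 2.68 in the 2710-nt contig. Junctions joined the contigs to each other: one of 4202 nt had 102 reads (55 in R1, 47 in R2) and one of 7181 nt had 82 reads (61 and 21). The later annotation adds a single gene on this strand between the flanking genes, the long intergenic noncoding RNA Gm19705, with 72 counts (1.92 TPM) in replicate 1 and 18 counts (0.76 TPM) in replicate 2.

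**Figure D3:**
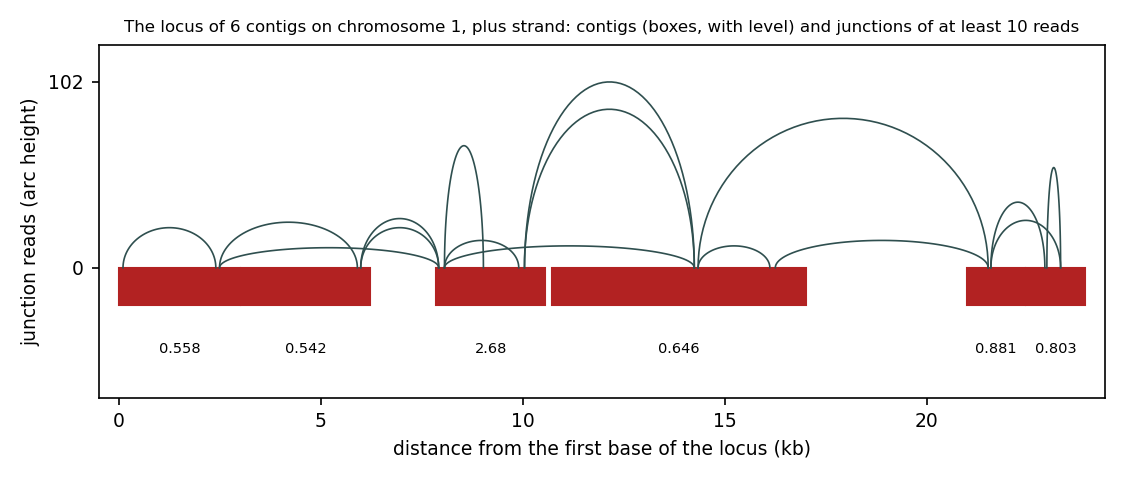
The chromosome 1 locus of 6 contigs, as distance from its first base (horizontal axis, kb). Boxes are contigs with their levels below them, and close neighbours appear merged; arcs are the 16 junctions with at least 10 reads, with height in proportion to reads, up to 102, and they link contigs along the whole locus.

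The 259 contigs formed 224 loci, of which 202 held 1 contig and 22 held 57 contigs between them. After the chromosome 1 locus came 5 contigs on the minus strand at chr3:96315794-96318876, with levels of 0.663 to 2.34, 10232 nt from Hfe2, the haemojuvelin gene of iron control (3.69 and 4.47 TPM). On chromosome 15, 4 minus-strand contigs with levels of 0.67 to 2.28 lay 13568 nt from Adck5 (14.8 and 14.3 TPM). A locus of 3 contigs, 4698 nt in all, lay 8153 nt from Cpox, a haem synthesis enzyme, on the opposite strand and before its start, with levels of 0.718 to 2.23. Cpox had 229 TPM in replicate 1 and 182 TPM in replicate 2, and the later annotation adds a noncoding RNA, Gm49701, on the strand of these contigs. Other loci of 3 lay near Agfg1, P4ha1 and Rassf6. By summed length the longest contig, alone in its locus, came after the chromosome 1 locus, then the loci near Fam241a (9105 nt), Agfg1 (7742 nt) and Adam10 (7588 nt). Contigs of a locus may be pieces of 1 transcript and are not independent.

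A single-exon de novo transcript on the same strand overlapped 199 contigs (76.8%). The criteria had already removed contigs that overlap a spliced model, and the share was not measured over other contigs. In all there were 191 distinct transcripts, each with an RPKM per replicate. They are models of their own, 108 to 6055 nt long, and their RPKM is not the level of the contig: a contig of level 6.94 had a transcript at 0 RPKM in both columns, and one of level 1.95 near Pex2 a transcript at 42.34 and 20.96 RPKM. In 162 of the 191 (84.8%) the RPKM was above 0 in both columns, against 73.8% of all 42850 single-exon de novo transcripts. Those were taken with no minimum level. The median was 0.181 RPKM in the first replicate column and 0.117 RPKM in the second. The median log2 ratio of the second to the first, with 0.1 added to each value, was -0.35, with an SD of 0.61 over transcripts. The 2-fold counts that follow also have 0.1 added to each value, so fewer transcripts pass than on the RPKM alone. Of the 124 transcripts with a mean of at least 0.1 RPKM, 34 (27.4%) were at least 2-fold lower in the second column. The share was 14.4% in all 5864 single-exon de novo transcripts of that mean. Only 1 of the 124 (0.806%) was at least 2-fold higher, against 11.7% of all. At a mean of at least 0.5 RPKM the difference between columns was larger in both sets: 22 of 47 (46.8%) were at least 2-fold lower, against 26.8% of 1176, and 1 of 47 was at least 2-fold higher, against 11.0%. At a mean of at least 0.1 RPKM the median log2 ratio was -0.61 in the 124 transcripts. It was -0.06 in all 5864 single-exon de novo transcripts and -0.12 in spliced de novo transcripts. With 2 libraries of 1 group there is no test of this difference.

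Among the 9 high contigs the second column was lower in 7 and higher in 2, those of the Gpx4-ps2 interval and of the Gm4366 interval (43.2 and 47.3 RPKM). The transcript counted above as at least 2-fold higher in the second column lay on chromosome 10 near Lgr5. It had 5.64 and 17.4 RPKM and lay over an 824-nt contig of level 13.5. Its interval holds Gm8960, a copy of Rps3a1 of the small ribosomal subunit.

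**Figure D4:**
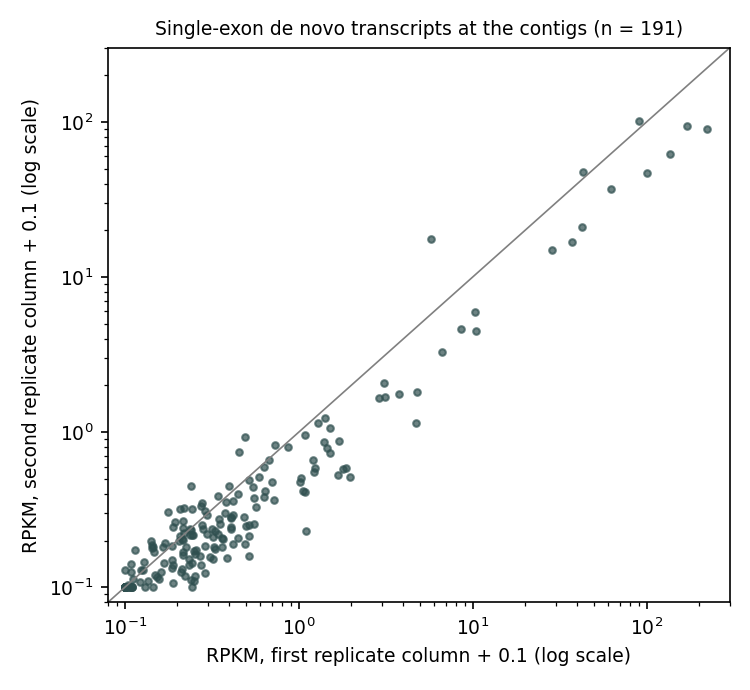
RPKM + 0.1 in the second (vertical axis) and first (horizontal axis) replicate column of the mm9 table, log scales, for 191 single-exon de novo transcripts at the contigs, with the line of equal values. Most points with a mean above 0.5 RPKM lie below the line, and 22 of those 47 are at least 2-fold below it.

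The 259 contigs lay 5058 to 651758 nt from the nearest annotated gene, with a median of 18832 nt. In all, 72 were more than 50000 nt away and 36 more than 100000 nt. The farthest, chr17:77335959-77336282 (324 nt, level 2.11), was 651758 nt from Gm16391. The next were 579527 nt from 1700018B24Rik, 446997 nt from Gm5913, 398817 nt from the synaptic gene Lrrc7 and 378323 nt from Gm23987. These 5 were 208 to 473 nt long, and the contig near Gm5913 had a level of 10.7 and 1.86 and 0.411 RPKM in the replicate columns. None of the 5 held a junction end.

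Relative to the nearest gene, 73 contigs (28.2%) lay past its 3′ end on the same strand, where a transcript running on past the gene would lie. The opposite strand before the 5′ end, where divergent transcripts from a promoter lie, held 71 (27.4%), the same strand before the 5′ end 69 (26.6%), and the opposite strand past the 3′ end 46 (17.8%). In 223 contigs of the same level and length within 5000 nt of a gene, also without spliced overlap, the shares were 26.9%, 35.4%, 21.5% and 16.1% in that order. The opposite strand before the 5′ end was the most frequent placement in the nearer set. In the 259 it held 71 contigs, close to the 73 of the most frequent. In the 800 contigs equally far from genes with spliced overlap, the shares were 26.6%, 21.5%, 29.6% and 22.25% in the same order. Contigs of a locus often share a placement, so no test was made. Up to 20000 nt from the gene 30.1% of the 136 contigs lay past its 3′ end on the same strand, and beyond that distance 26.0% of 123.

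**Figure D5:**
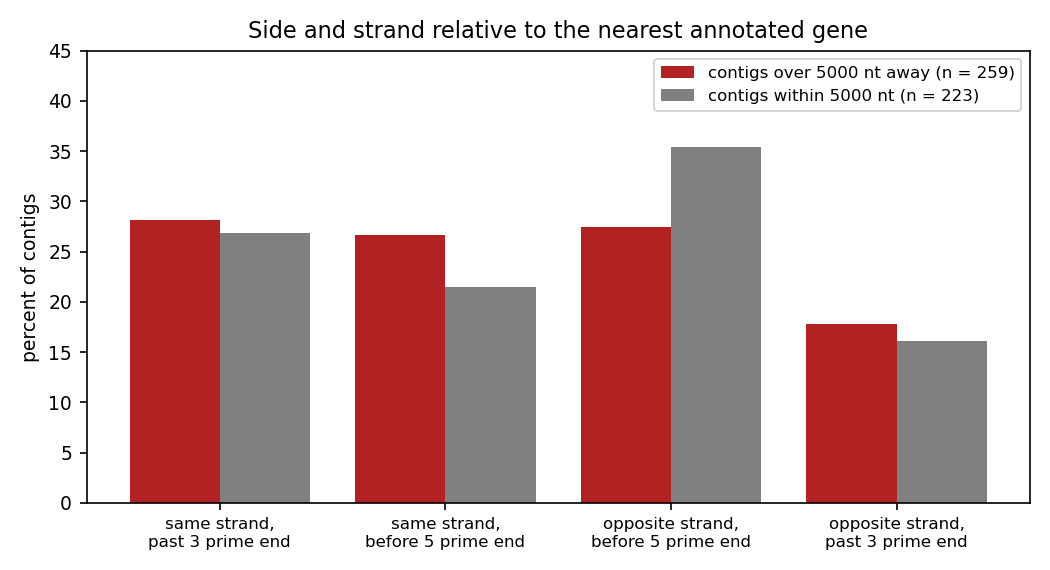
Percent of contigs (vertical axis) by side and strand relative to the nearest annotated gene, for the 259 contigs more than 5000 nt away (red) and 223 contigs within 5000 nt (gray). The 4 shares of the 259 contigs are 28.2%, 26.6%, 27.4% and 17.8% from left to right, against 26.9%, 21.5%, 35.4% and 16.1%.

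The contigs had 220 distinct nearest genes, of which 196 are in the per-library gene tables. Their median was 0.52 TPM in replicate 1 and 0.56 TPM in replicate 2, against 0.04 and 0.03 TPM over the 33068 genes of the annotated table found there. At least 1 TPM in both libraries was reached by 89 of the 196 (45.4%), against 33.1% of all, and 57 (29.1%) were at 0 in both, against 41.1%. By placement, the median of the nearest genes was 1.70 TPM for contigs on the same strand before the 5′ end and 1.46 TPM for those on the opposite strand before the 5′ end. It was 0.253 TPM for contigs on the opposite strand past the 3′ end and 0.0875 TPM for those on the same strand past the 3′ end. A higher level of a contig did not go with a higher nearest gene: Spearman's rho between level and nearest gene TPM was -0.03 over 229 contigs, as a description.

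The 220 nearest genes were 0.59% of the 37310 genes in the annotated table, so short gene lists can hold few of them, and the counts below say nothing about the lists. Of the 22 erythroid genes in the table, 1 was the nearest gene of a contig: Sptb, the red cell spectrin beta chain (38.0 and 35.0 TPM). The contig lay 7710 nt before it on the same strand with a level of 0.555 and 0.157 and 0.0729 RPKM in the replicate columns. Of 22 hepatocyte genes 1 was, Alb, and of 13 imprinted genes 1 was, Igf2, the fetal growth factor, at 959 and 974 TPM. The Igf2 contig, chr7:149803378-149806712 on the plus strand, was 3335 nt long with a level of 0.636 and lay 29961 nt away on the opposite strand. Of 11 blood transcription factor genes 0 were. Red cell genes outside the list, named after their values were seen, were Cpox, described above with its 3 contigs, and the globin gene Hbq1a (8.74 and 7.71 TPM), with a 5417-nt contig of level 0.539 at 6229 nt past its 3′ end on the same strand.

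By chromosome, numbers ran from 2 on chromosome 19 to 25 on each of chromosomes 1 and 3, and the mitochondrial chromosome held 0. Chromosome 11 held 4 contigs (1.54% of the 259), against 8.12% of the contigs of that level and length and 7.91% of annotated genes. Chromosome 2 held 5 (1.93%), against 8.45% of contigs, and chromosome 4 also held 5, against 6.62%. In the other direction, chromosome 3 held 9.65%, against 4.85%, and chromosome 13 held 7.72%, against 3.85%. These are examples, and not every chromosome that differed is named. Most contigs of that level and length overlap a gene, while the 259 must lie more than 5000 nt from any. The distance criterion itself can therefore shift these shares where genes are dense. They were not set against the 1059 contigs beyond 5000 nt, and contigs of a locus are counted separately.

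At the thresholds, the contigs just inside the level minimum had 0.502, 0.503 and 0.504, and those just outside 0.499, 0.498 and 0.496. Lengths just inside were 200, 201 and 201 nt, and just outside 199, 198 and 197 nt. Distances just inside were 5058, 5082 and 5127 nt, and just outside 4996, 4973 and 4923 nt. Contigs that met every other criterion and failed 1 alone numbered 15776 for the level, 5771 for the distance, 3768 for the length and 800 for the spliced overlap.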

How the data were processed

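Poly(A) RNA-seq of embryonic liver, 1 group of 2 libraries, was used as deposited; the sources used here do not name the aligner, contig caller or counting tool. On the mm9 build the authors deposited contigs with a coverage signal pooled over both libraries and an IDR (irreproducible discovery rate, read like a p-value, with low values where the replicates match), and splice junctions with a read count per replicate. The IDR was 0.00 in all 259 contigs and in 64883 of 64885 contigs of the same level and length. The meaning of the signal column was worked out from the values. Annotated (Ensembl release 65) and de novo models carry RPKM per replicate, per the file headers. The mm10 gene tables hold the deposited expected count (an estimated count per gene) and TPM per library, per the file headers, with annotation M4, per a deposited note.

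Distances, overlaps and loci (gaps of at most 10000 nt) were computed with Python 3.11.15, numpy 2.4.6, pandas 2.3.3 and scipy 1.17.1, after the interval functions were tested on simulated intervals, and figures were drawn with matplotlib 3.10.9. GENCODE M21 gave names for 193 of the 220 nearest genes, the genes added between the 2 flanking genes, and transcripts. Same-strand processed pseudogenes of the 12 highest contigs were aligned to its coding transcripts with BLAST+ 2.17.0 (e-value at most 1e-10), the best match kept. Every column of per-sample values was mapped.

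The members, lists and tests were chosen with earlier results of these data known. The named contigs are the 10 highest, the 5 longest, the 5 farthest, the 5 loci of most and of largest summed length, the 3 contigs on either side of each threshold, and those next to listed genes. Junctions to annotated genes, added pseudogenes and opposite-strand contigs were examined after values were seen. No test was run over contigs, which are not replicates, and pooled levels have no replicate error. Alternatives varied each criterion, the overlap rule, an IDR limit, the locus gap, the pseudocount, and the library used. The gene match of 1 high contig is not reported here.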

Additional observations from a re-analysis of the deposited data

How the results depend on the processing

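A limit of 0.1 on the IDR could move nothing, since every contig has an IDR of 0.00. Of the 49 other alternatives to 10 values, 33 stayed within 1.5 times a count, within the 95% interval of a share or median, or within 1 SD of the replicates. These intervals treat contigs or transcripts as independent, which they are not, so they serve only as a yardstick for the size of a change. The number of contigs was 103 at a level minimum of 1 and 726 at 0.25, 105 at a length minimum of 500 nt and 540 at 100 nt; it was 194 and 345 at distances over 10000 and 2000 nt. The median level was 1.65 at a level minimum of 1 and 0.396 at 0.25. The median length was 983 nt at a length minimum of 500 nt and 192.5 nt at 100 nt. The median distance was 14797 nt at a length minimum of 500 nt, 26735 nt at distances over 10000 nt and 11954 nt at distances over 2000 nt. The share of contigs with a junction end was 20.5% at 10 reads or more. The median TPM of nearest genes, 0.53, was 0.56 without replicate 1, 0.52 without replicate 2 and 5.33 over the 110 genes of at least 0.1 TPM. The median log2 ratio of the replicate columns was -0.071 with a pseudocount of 1 and -0.94 over the 47 transcripts of at least 0.5 RPKM. A changed minimum moves the number of contigs and the median of its own measure by construction; for the other values, such as the median distance at a length minimum of 500 nt, the cause was not tested.

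With the spliced overlap counted on the same strand only there were 294 contigs, and by exons only 327. No paired analysis was possible because the study has 1 group. Contig levels are pooled, so no contig count could be made without a library. Depth limits the lowest contigs: the lowest mean read depth per base was 17.1. Sequence of the contigs themselves was not analysed here.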
